A study of Zingiber officinale with 6 samples.

Results

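A set of 38 ginger genes had an FPKM (the number of fragments scaled by transcript length and library depth) below 0.5 in each of 3 control plants and of 2 or more in each of 3 plants exposed to the volatile compounds of Pythium oligandrum (Po-VOCs). These values chose the genes, from 55601 listed in the deposited table, so the difference between the groups is a description of the set and is given without a test. The rule also left out 3 genes by name, none of which met the thresholds, so that all 38 genes that met them are described. The reverse pattern, at least 2 FPKM in each control plant and below 0.5 in each exposed plant, was met by 26 genes.

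Leaf blades of the uppermost leaves were sampled at 21 days from ginger (Zingiber officinale) of the Laiwu variety, raised from tissue culture, with 1 mRNA library per plant. The roots of the exposed plants were exposed, through holes in the pot, to the air of a glass jar in which P. oligandrum strain GAQ1, an oomycete used for biocontrol, grew on V8 agar, while the jar under the control plants held V8 agar without the oomycete. Each plant grew in a pot sealed onto its jar, and the exposure was to the whole mixture of volatiles. Total counts were 13695463 to 14662442 per library, and the 38 genes together held 85 to 161 counts in a control library and 3678 to 3938 counts in an exposed one. In bulk leaf tissue, fewer cells that express a gene and less RNA of it per cell cannot be told apart. Of leaf genes with a name in the annotations used here, the chloroplast gene rbcL was at 0.338 to 6.56 FPKM. A gene for the chlorophyll a-b binding protein CP24 (LOC122029873) was at 35.8 FPKM in Po-VOCs replicate 1 and at 0.214 to 2.22 FPKM in the other 5 libraries, so the labelled tissue could not be checked by these genes.

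The members encode hormone and wall enzymes, transcription factors, signalling proteins and proteins of no known role. GH3 enzymes join the auxin indole-3-acetic acid to amino acids and so lower the pool of free hormone, and ACC oxidase makes the gas hormone ethylene. Xyloglucan endotransglucosylase/hydrolases cut and rejoin a wall polymer during cell expansion, small helix-loop-helix proteins of the ILI type act on cell elongation in rice, and CEN-like proteins keep shoot tips growing in snapdragon and Arabidopsis.

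None of the 38 genes was without counts in all control plants, so "switched on from silence" is stronger than what the libraries show. Of the 38, 20 had at least 1 count in every control plant, 14 were at 0 in 1 control library and 4 were at 0 in 2. The control counts ranged from 0 to 11 in a library and from 1 to 25 over the 3 plants together, with a median of 8.5. In the exposed plants they ranged from 20 to 570 in a library and from 90 to 827 together, with a median of 246.5. The zeros were spread unevenly, with 11 genes at 0 counts in control replicate 1, 4 in control replicate 2 and 7 in control replicate 3. When control replicate 2 or control replicate 3 was set aside, 2 members were at 0 in the remaining control plants.

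In FPKM, the mean over the exposed plants ran from 2.11 to 14.5 with a median of 4.66 over the 38 genes, and the control mean ran from 0.0217 to 0.464. The ratio of the means ranged from 8.00 to 289, with a median of 26.8. These were not abundant transcripts. By exposed mean the highest member held rank 9244 and the lowest rank 31208 among the 55601 genes, and only 3 members exceeded 10 FPKM. Together they took 0.0272% of the counts of the exposed plants and 0.000911% of those of the control plants.

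**Figure D1:**
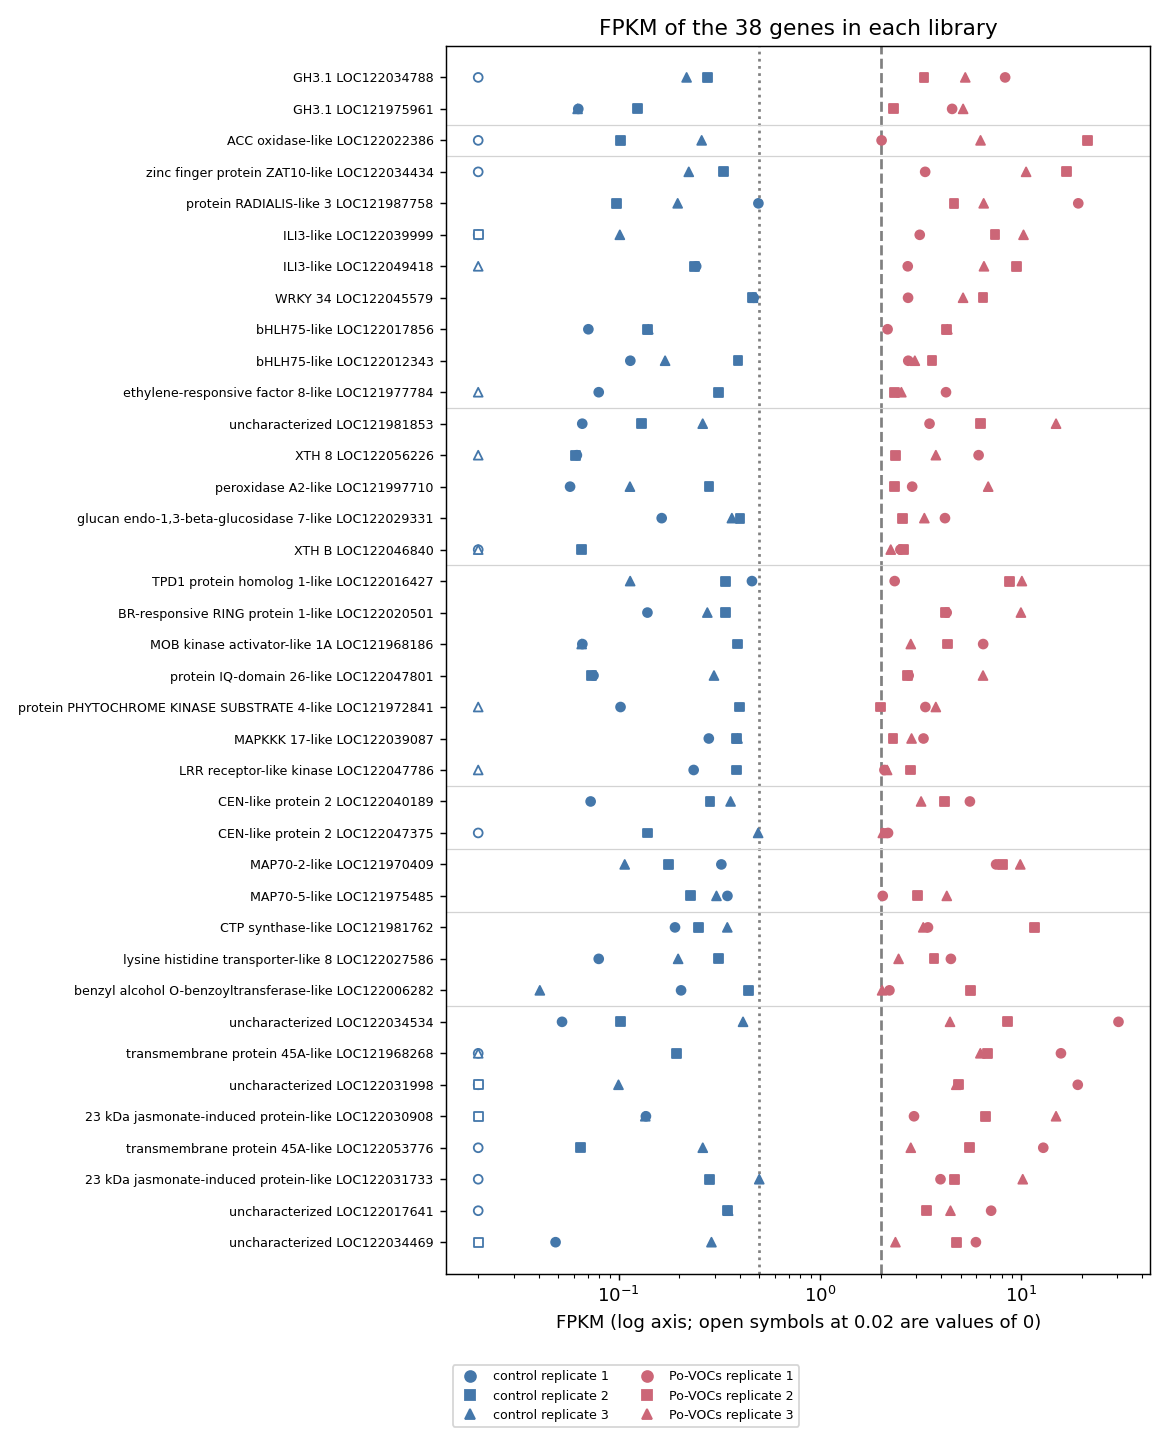
FPKM (log axis) of the 38 genes in the 3 control plants (blue) and the 3 Po-VOC-exposed plants (red), grouped by role, with open symbols for values of 0 and lines at 0.5 and 2 FPKM, the thresholds of the rule. The control values end at 0.499 FPKM and the exposed values begin at 2.00 FPKM, a gap set by the rule, while the exposed values reach 30.5 FPKM.

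With the quasi-likelihood test of edgeR, fitted to the whole table with Benjamini-Hochberg adjustment, 34 of the 38 genes met the study's thresholds (adjusted p below 0.05, a change above 2-fold and a mean above 1 FPKM), all of them higher in exposed plants. Over all 41508 genes tested, 1.09% were called higher. As the rule used the same contrast, nothing about the members follows from this count. All 38 passed the filter on low counts through the exposed plants alone. The 4 members not called were those for a benzyl alcohol O-benzoyltransferase-like protein, a PHYTOCHROME KINASE SUBSTRATE 4-like protein, a leucine-rich repeat receptor-like kinase and CEN-like protein 2 (LOC122047375). DESeq2 called all 38, against 3.02% of 55601 genes. The edgeR count fell to 4 without control replicate 1, 0 without control replicate 2, 2 without Po-VOCs replicate 2 and 1 without Po-VOCs replicate 3. Over all genes tested, those called higher fell from 452 to 54, 1, 25 and 28, so the fall was not confined to the members. The unadjusted p was under 0.05 for all 38 genes in each of these fits, but the genes were chosen for this difference, so nothing about stability follows from it.

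The thresholds cut through a continuous range. On the control side, the members nearest the limit were LOC122031733 (23 kDa jasmonate-induced protein-like) with 0.499 FPKM in control replicate 3, LOC121987758 (RADIALIS-like 3) with 0.494 FPKM in control replicate 1 and LOC122047375 with 0.493 FPKM in control replicate 3. Just outside lay LOC122038680 (transcription factor ILI3-like), whose highest control value was 0.522 FPKM, LOC121987834 (IBH1-like 1) at 0.530 FPKM and LOC121981304 (auxin response factor 15-like) at 0.532 FPKM. On the exposed side, the lowest values inside were 2.00 FPKM in LOC121972841, 2.03 FPKM in LOC122022386 and 2.04 FPKM in LOC122006282. Just outside were LOC121980908 (probable E3 ubiquitin-protein ligase ATL44) at 1.82 FPKM, LOC122018536 (1-aminocyclopropane-1-carboxylate oxidase-like) at 1.81 FPKM and LOC122017420 (uncharacterized) at 1.78 FPKM. Single plants therefore set membership. Without Po-VOCs replicate 1 the rule took in 87 genes and without control replicate 3 it took in 71, with the 38 among them each time.

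Auxin conjugation was represented by a pair of genes for a probable indole-3-acetic acid-amido synthetase GH3.1. LOC122034788 (Zo_v1.1 chromosome 1A, 137426361 to 137428868) had 0, 0.276 and 0.217 FPKM in control replicates 1 to 3 and 8.33, 3.29 and 5.28 FPKM in Po-VOCs replicates 1 to 3. LOC121975961 (chromosome 1B, 121733467 to 121735960) had 0.0629, 0.123 and 0.0624 FPKM in the control plants and 4.54, 2.32 and 5.15 FPKM in the exposed plants. Po-VOCs replicate 2 was the lowest exposed plant for both copies. The ratio of the group means was 34.3 for the copy on 1A and 48.3 for the copy on 1B. The annotation rows used here, which the study had called higher on these same libraries, name 7 further GH3 genes, of which edgeR called 5 higher and 0 lower, beside 368 of the 1413 tested non-members in all these rows and 1.09% of all genes tested. The same-named copies LOC122012598 (chromosome 8A) and LOC122014545 (chromosome 8B) had control means of 1.05 and 1.18 FPKM and exposed means of 5.62 and 6.20 FPKM, and neither was called (adjusted p = 0.147 and 0.0791 from edgeR).

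The ethylene gene LOC122022386, described as 1-aminocyclopropane-1-carboxylate oxidase-like (chromosome 9B, 107105034 to 107106544), differed more among the exposed plants than any other member. It had 0, 0.102 and 0.258 FPKM in the control plants and 2.03, 21.4 and 6.29 FPKM in Po-VOCs replicates 1 to 3. Its mean of 9.89 ± 10.2 FPKM (SD, n = 3) thus rested on Po-VOCs replicate 2, whose value was 10.5 times that of replicate 1. The same-named LOC122018536 on chromosome 9A had the same order of plants, 1.81, 30.4 and 12.0 FPKM, over control values of 0.104, 0.0511 and 0.103 FPKM, and it missed the rule only through replicate 1. A further pair of same-named genes, LOC122021399 on 9A and LOC122025277 on 9B, was not near silence. Their control means were 3.12 and 3.69 FPKM and their exposed means 23.4 and 42.4 FPKM. In deposited FPKM, Po-VOCs replicates 2 and 3 were close, at 34.25 and 30.5 FPKM in LOC122021399 and 60.1 and 58.7 FPKM in LOC122025277. TMM gave these libraries size factors of 1.02 and 0.913, so which plant was the highest depended on the scaling in LOC122025277.

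Among the 8 transcription factor genes, exposed means ran from 3.04 to 10.3 FPKM and ratios from 10.3 to 206. The highest was LOC122034434 (ZAT10-like, chromosome 11B, 86354940 to 86356209), a C2H2 zinc finger protein whose Arabidopsis namesake acts in stress responses. Its control values were 0, 0.330 and 0.223 FPKM and its exposed values 3.33, 16.8 and 10.6 FPKM. LOC121987758 (RADIALIS-like 3, chromosome 5B, 116146180 to 116147000), a small Myb-like protein named after a snapdragon flower gene, had the opposite order, with 19.2 FPKM in Po-VOCs replicate 1 against 4.64 and 6.52 FPKM in replicates 2 and 3. So the same exposed plant was the lowest for one factor and the highest for the other.

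The ILI3-like genes LOC122039999 (chromosome 2A, 127398048 to 127398832) and LOC122049418 (chromosome 2B, 110794734 to 110795410) encode small helix-loop-helix proteins. LOC122039999 had a single count in all control plants together and 30, 76 and 101 counts in the exposed plants, or 3.13, 7.42 and 10.3 FPKM. The ratio of its counts, scaled to library totals, was 207 with an exact 95% interval of 36.8 to 8227, which covers counting error only. LOC122049418 had 0.243, 0.238 and 0 FPKM in control plants and 2.73, 9.51 and 6.54 FPKM in exposed plants. Po-VOCs replicate 1 was the lowest for both. Other same-named genes, LOC122016366 on 1B and LOC122038680 on 1A, had control means of 0.397 and 0.416 FPKM and exposed means of 7.14 and 10.3 FPKM, and edgeR called both higher (log2 fold change 4.15 and 4.57, adjusted p = 0.0339 and 0.0131). In these, Po-VOCs replicate 2 was instead the lowest exposed plant, at 4.83 and 7.34 FPKM.

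The bHLH75-like genes LOC122012343 (8A) and LOC122017856 (8B) were close in level, with exposed means of 3.10 ± 0.445 and 3.57 ± 1.22 FPKM (SD, n = 3 each) and control means of 0.225 and 0.116 FPKM. LOC122045579 (probable WRKY transcription factor 34, chromosome 1B) had the highest control mean of the set. It had 7 counts in each control plant, 0.459 to 0.469 FPKM, and 2.74, 6.47 and 5.15 FPKM in the exposed plants. LOC121977784 (ethylene-responsive transcription factor 8-like, chromosome 4B) had 0.0795, 0.312 and 0 FPKM in control plants and 4.23, 2.36 and 2.54 FPKM in exposed plants. The annotation rows used here hold 27 other bHLH, 37 other AP2, 32 other WRKY and 30 other Myb-like genes. Of those with enough counts for edgeR, 8 of 25 bHLH, 10 of 35 AP2, 7 of 28 WRKY and 9 of 27 Myb-like genes were called higher and 0 lower, beside 368 of the 1413 tested non-members in all these rows. Direction in these rows is no independent evidence, since the study chose them as higher on these libraries.

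The cell wall group held 5 genes with exposed means of 2.45 to 8.24 FPKM. LOC122046840 (probable xyloglucan endotransglucosylase/hydrolase protein B, chromosome 2B, 113226485 to 113227718) had the lowest control mean of the set, from 1 count over the 3 control plants, and was even among the exposed plants, at 2.51, 2.60 and 2.25 FPKM. Its count ratio was 112 with an exact 95% interval of 19.7 to 4469, which, like the next interval, covers counting error only. LOC122056226 (probable xyloglucan endotransglucosylase/hydrolase protein 8, chromosome 3B, 24967601 to 24968966) had 2 control counts and exposed values of 6.15, 2.37 and 3.77 FPKM, a ratio of 99.2 (27.1 to 824). Its namesake on chromosome 3A, LOC122051693, had a control mean of 1.44 FPKM and an exposed mean of 15.3 FPKM (log2 fold change 3.40, adjusted p = 0.0221 from edgeR).

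LOC121981853 (chromosome 5A, 131819729 to 131822526) is named uncharacterized, with a pectinesterase as its closest database match in the study's annotation, and pectinesterases act on wall pectin. It had 0.0658, 0.129 and 0.261 FPKM in control plants and 3.51, 6.30 and 14.9 FPKM in exposed plants. LOC121997710 (peroxidase A2-like, chromosome 6A) was likewise highest in Po-VOCs replicate 3, at 6.86 FPKM against 2.87 and 2.36 FPKM. LOC122029331 (glucan endo-1,3-beta-glucosidase 7-like, chromosome 10B), of an enzyme family that cleaves callose, had 4.18, 2.58 and 3.30 FPKM over a control mean of 0.310 FPKM. The wall genes thus did not share 1 order of plants.

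The microtubule group held a pair of genes, and proteins of this family bind microtubules in Arabidopsis. LOC121970409 (microtubule-associated protein 70-2-like, chromosome 4A, 103559716 to 103563638) had the higher level. Its exposed values of 7.51, 8.05 and 9.91 FPKM, or 8.49 ± 1.26 FPKM (SD, n = 3), were the most even among the 10 members with the highest level, over control values of 0.324, 0.176 and 0.107 FPKM. LOC121975485 (microtubule-associated protein 70-5-like, chromosome 4B, 90771507 to 90775360) had 2.05, 3.06 and 4.27 FPKM over a control mean of 0.293 FPKM. In both, Po-VOCs replicate 3 was the highest exposed plant and replicate 1 the lowest. The annotation rows used here hold no other gene with this domain. As the study had called the genes of these rows higher, family members that were unchanged or lower would not appear in them.

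The CEN-like protein 2 genes were LOC122040189 (chromosome 2A, 155477222 to 155478537), with 5.57, 4.16 and 3.18 FPKM in exposed plants, and LOC122047375 (chromosome 2B, 134902176 to 134903509), with 2.18, 2.10 and 2.05 FPKM. The latter was the lowest member and, in deposited FPKM without TMM scaling, the most even, its exposed plants differing by 1.06 times. Control means were 0.239 ± 0.149 and 0.211 ± 0.254 FPKM (SD, n = 3 each). No other gene of this family is in the rows used here, which leave out genes that the study did not call higher.

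The 7 signalling genes had exposed means of 2.36 to 7.07 FPKM and ratios of 8.00 to 26.8. LOC122016427 (TPD1 protein homolog 1-like, chromosome 8B), named after a small secreted protein of Arabidopsis anthers, had 2.35, 8.79 and 10.1 FPKM. LOC122020501 (brassinosteroid-responsive RING protein 1-like, chromosome 9A) had 4.27, 4.18 and 9.98 FPKM, and LOC122047801 (IQ-domain 26-like, chromosome 2B), a calmodulin-binding protein, had 2.76, 2.72 and 6.47 FPKM. In these 3 genes Po-VOCs replicate 3 was the highest. LOC121968186 (MOB kinase activator-like 1A, chromosome 3B) ran the other way, at 6.48, 4.29 and 2.83 FPKM. LOC122039087 (mitogen-activated protein kinase kinase kinase 17-like, chromosome 1A) had the smallest ratio of all members, 8.00, from 0.351 ± 0.0617 to 2.81 ± 0.485 FPKM (SD, n = 3 each). LOC121972841 (PHYTOCHROME KINASE SUBSTRATE 4-like, chromosome 4A), named after an Arabidopsis protein of light-directed growth, and LOC122047786 (a leucine-rich repeat receptor-like kinase, chromosome 2B) had exposed means of 3.04 and 2.36 FPKM. For both, control replicate 3 was at 0 and control replicate 2 was the highest control plant, at 0.400 and 0.385 FPKM.

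In metabolism and transport, LOC121981762 (CTP synthase-like, chromosome 1B, 138154138 to 138159520), for an enzyme of nucleotide synthesis, had the most control counts of any member, 25, and 3.44, 11.7 and 3.26 FPKM in exposed plants. LOC122006282 (benzyl alcohol O-benzoyltransferase-like, chromosome 7B), for an acyltransferase, was likewise highest in Po-VOCs replicate 2, at 5.58 FPKM against 2.22 and 2.04 FPKM. LOC122027586 (lysine histidine transporter-like 8, chromosome 10A), an amino acid carrier, had 4.48, 3.69 and 2.46 FPKM over a control mean of 0.196 FPKM.

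Of the members named uncharacterized, LOC122034534 had the highest exposed mean of the whole set. This gene (chromosome 11B, 1960756 to 1962186) had 1, 2 and 8 counts in the control plants and 570, 172 and 85 counts in the exposed plants, or 30.5, 8.59 and 4.43 FPKM, and the SD over the 3 plants was close to their mean of 14.5 FPKM. LOC122031998 (chromosome 11A, 2741992 to 2743534) had 0, 0 and 2 control counts and 19.1, 4.90 and 4.76 FPKM in exposed plants, the largest count ratio of the set at 285 with an exact 95% interval of 78.5 to 2358. LOC122034469 (chromosome 11B, 1740844 to 1742415) had 5.96, 4.78 and 2.37 FPKM. The study's annotation gives the 3 the same closest database match, a Striga sequence named phytase, which it gives to 1 other gene of the rows used here, LOC122032863 on chromosome 11A. That gene had 0.155, 0.101 and 1.53 FPKM in control plants and 17.8, 3.40 and 3.70 FPKM in exposed plants. In all 4 of these genes Po-VOCs replicate 1 was the highest exposed plant and control replicate 3 the highest control plant.

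The transmembrane protein 45A-like genes LOC121968268 (chromosome 3B, 48761139 to 48762216) and LOC122053776 (chromosome 3A, 60784014 to 60785095) carry a domain of unknown function. LOC121968268 had 3 counts in control plants, all in replicate 2, and 15.8, 6.83 and 6.27 FPKM in exposed plants. Its count ratio was 146 (49.5 to 709, counting error only). LOC122053776 had 0, 0.0646 and 0.262 FPKM in control plants and 12.9, 5.55 and 2.83 FPKM in exposed plants. The exposed plants came in the same order for both copies. LOC122017641 (uncharacterized, chromosome 8B) was also highest in Po-VOCs replicate 1, at 7.10 FPKM against 3.37 and 4.46 FPKM.

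Members lay on 20 of the 22 chromosomes of the A and B sets, 15 on A and 23 on B chromosomes, where 48.6% and 49.0% of the listed genes lie. Their spans, from 607 to 5383 bp, had a median of 1420 bp, against 3521 bp over all listed genes. Within 100 kb of another member lay 3 genes, all on chromosome 11A, and within 500 kb lay 7, on 11A, 11B and 2B.

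The chromosome 11A group runs from LOC122030908 (23 kDa jasmonate-induced protein-like, 2646687 to 2647825) to LOC122031733 of the same name (2751998 to 2753083), with LOC122031998 8464 bp before the latter. Proteins of this name were first described in barley leaves treated with jasmonate. LOC122030908 had 0.136, 0 and 0.135 FPKM in control plants and 2.94, 6.66 and 14.9 FPKM in exposed plants. LOC122031733 had 0, 0.282 and 0.499 FPKM in control plants and 3.97, 4.68 and 10.2 FPKM in exposed plants. Both were highest in Po-VOCs replicate 3, whereas LOC122031998 between them was highest in replicate 1, so neighbours did not follow 1 order. The other 3 listed genes within 100 kb of this group had too few counts for a test, with exposed means of 0.0117 to 0.380 FPKM.

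On chromosome 11B the window from 100 kb before LOC122034469 to 100 kb after LOC122034534 (1640844 to 2062186) held 11 listed genes, 2 of them members. Of the other 4 with enough counts, edgeR called 1 higher and 0 lower, beside 1.09% called higher and 1.02% called lower of all genes tested. At an unadjusted p under 0.05, 2 of the 4 were higher and 0 lower. The shares of all genes above are at adjusted p and are no background for this count. The called neighbour LOC122034619 (1996589 to 1997782) had 0.319, 0.2501 and 3.23 FPKM in control plants and 174, 78.9 and 36.7 FPKM in exposed plants (log2 fold change 6.20, standard error 1.02, adjusted p = 0.0334). It followed the same order of exposed plants as both members. LOC122033442, also named 23 kDa jasmonate-induced protein-like, had 0.4995, 0.630 and 8.78 FPKM in control plants and 52.1, 52.5 and 44.96 FPKM in exposed plants, and was not called (log2 fold change 3.92, adjusted p = 0.0825). LOC122034607 and LOC122034399, at the ends of the window, had log2 fold changes of -0.01 and -0.06.

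**Figure D2:**
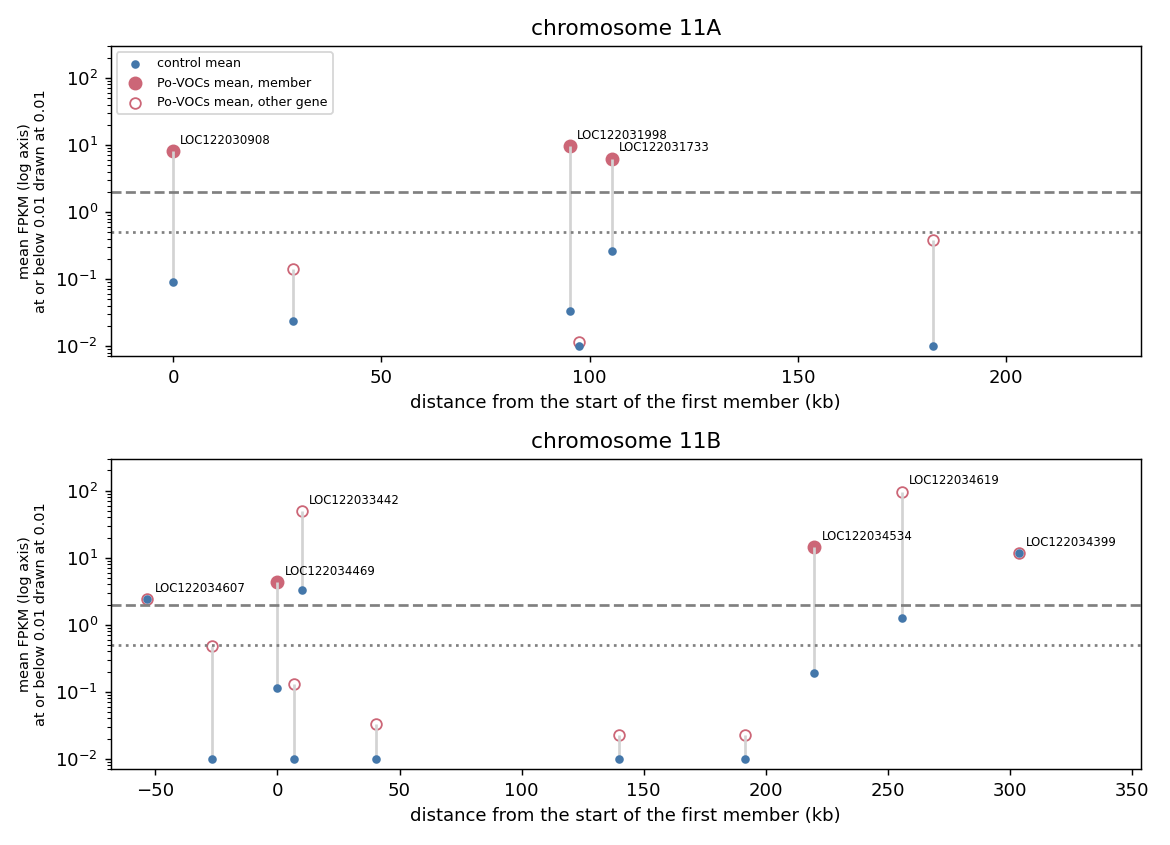
Mean FPKM (log axis, n = 3 plants per group) of the listed genes around the members on chromosomes 11A and 11B, by distance in kb from the start of the first member; filled red symbols are members, open red symbols other genes, blue symbols the control means, and the lines mark 0.5 and 2 FPKM. Other genes within 100 kb on 11A stayed at 0.380 FPKM or less, while on 11B the non-member LOC122034619 reached 96.5 FPKM.

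Same-named genes on the A and B chromosomes of one number were set side by side as counterparts. Of the 38 members, 33 have a product name, and 23 have a same-named gene on the chromosome of the same number and other letter among the annotation rows used here. This gave 19 pairs, in 5 of which both genes were members, and 13 distinct counterparts outside the thresholds. The pairs include LOC122022386 with both LOC122018536 and LOC122021399, and LOC122033442 with both LOC122030908 and LOC122031733. Names were compared and not sequences or positions, and reads of near-identical copies may have been shared or dropped in counting, so the copies are uncertain. Of the 13 counterparts, 8 had a control mean of 0.5 FPKM or more, and over all 13 control means ran from 0.0428 to 3.30 FPKM and exposed means from 1.26 to 49.9 FPKM. Of the 12 with enough counts, edgeR called 6 higher, beside 368 of the 1413 tested non-members in these rows, which the study had itself chosen as higher, and 1.09% of all genes tested.

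The levels of the copies show on which side they missed the rule. For TPD1 protein homolog 1-like the member was at 0.304 FPKM and the copy on 8A, LOC122011436, at 1.45 FPKM in control plants, and their exposed means were 7.07 and 12.2 FPKM. For MOB kinase activator-like 1A the control means were 0.173 and 0.537 FPKM and the exposed means 4.53 and 6.77 FPKM. Other copies missed the rule on the exposed side only. The lysine histidine transporter-like 8 gene on 10B, LOC122030166, had 2.48, 2.12 and 1.64 FPKM in exposed plants (log2 fold change 3.88, adjusted p = 0.0297), and the xyloglucan endotransglucosylase/hydrolase protein B gene on 2A, LOC122042327, had 0.939, 0.438 and 2.42 FPKM.

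**Figure D3:**
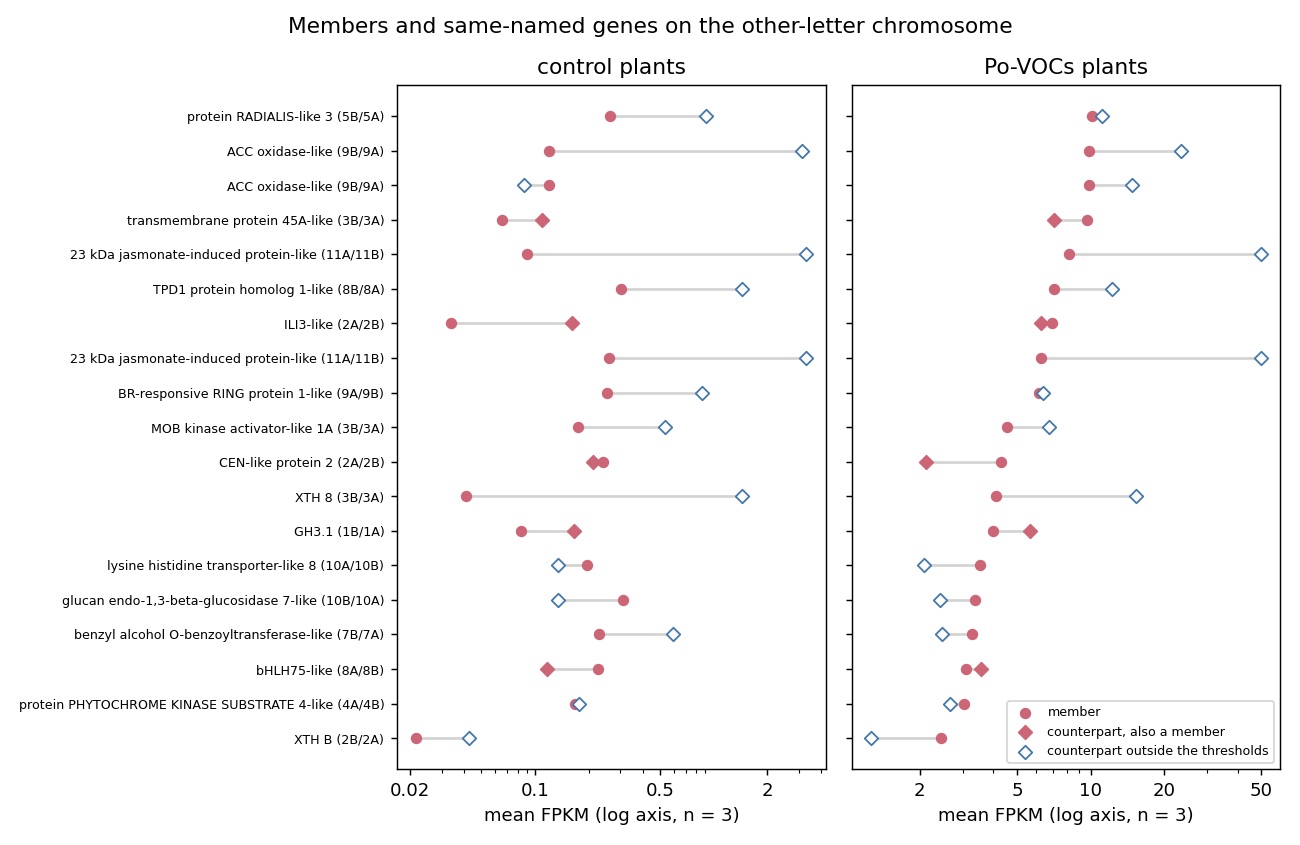
Mean FPKM (log axes, n = 3) of each member and its same-named gene on the chromosome of the same number and other letter, in control plants (left) and exposed plants (right), with chromosomes in brackets; open diamonds are counterparts outside the thresholds. In control plants open diamonds reach 3.30 FPKM, and in exposed plants they run from 1.26 to 49.9 FPKM.

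The rule set only a lower limit for the exposed plants, and above it they differed. The highest exposed plant exceeded the lowest by a median of 2.45 times over the 38 genes, with a range of 1.06 to 10.5. Over the 18704 other genes with 2 FPKM or more in each exposed plant and a mean in the same range, the median was 1.48. Of the members, 12 differed by 3 times or more, as did 3.59% of those other genes. The highest plant was Po-VOCs replicate 1 for 16 members, replicate 2 for 9 and replicate 3 for 13, where the other genes divided as 50.2%, 26.0% and 23.7%. With library sizes adjusted by TMM the members divided as 14, 9 and 15 and the other genes as 33.8%, 27.2% and 39.1%. These shares are descriptions, since genes of one library are not replicates. The 18704 other genes were not chosen for a difference between the groups, so the spread is not shown to be particular to the members. Same-named genes outside the thresholds varied too, from 3.71 to 19.3 FPKM in LOC122034719 and from 8.45 to 60.1 FPKM in LOC122025277. LOC121983199 was more even, at 9.28 to 12.7 FPKM.

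In 12 of the 19 pairs of counterparts the same exposed plant was the highest, and in 11 all 3 plants came in the same order, with 10 for the first count when TMM sizes were used. The same share was not computed for other pairs of genes, so nothing about the copies follows from these counts. LOC122022386 and LOC122033442 each enter more than 1 pair. Of the 5 pairs in which both genes were members, the same plant was the highest in deposited FPKM in 2, the transmembrane protein 45A-like and the CEN-like protein 2 genes. The CEN-like LOC122047375 differed by only 1.06 times among exposed plants, and its highest plant changed when TMM sizes were used. Po-VOCs replicate 1 took 70.1% of the summed exposed FPKM of LOC122034534, 66.4% of LOC122031998 and 63.3% of RADIALIS-like 3 (LOC121987758), and 54.6% and 60.6% of the transmembrane protein 45A-like genes. It took 6.83% of the ACC oxidase-like gene LOC122022386 and 10.8% of the ZAT10-like gene LOC122034434, of which Po-VOCs replicate 2 took 72.0% and 54.7%. Po-VOCs replicate 3 took 60.9% of LOC122030908 and 60.3% of LOC121981853.

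**Figure D4:**
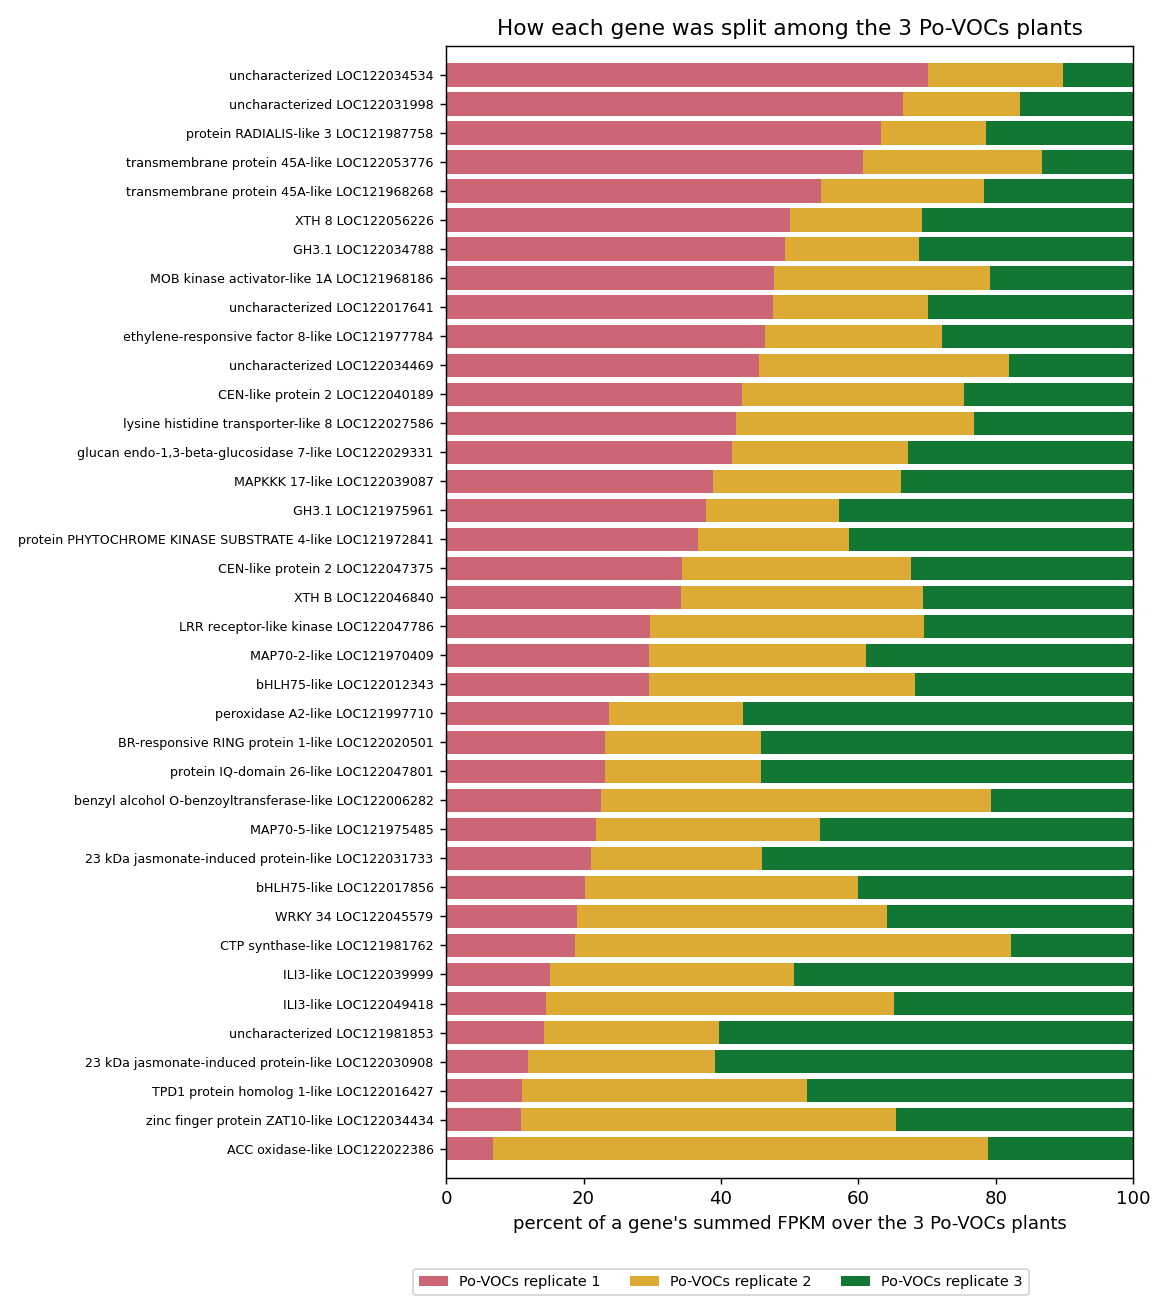
Percent of each gene's FPKM, summed over the 3 exposed plants, that came from Po-VOCs replicate 1 (red), 2 (yellow) and 3 (green), ordered by the share of replicate 1. The share of replicate 1 falls from 70.1% in LOC122034534 to 6.83% in the ACC oxidase-like gene LOC122022386.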

How the data were processed

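Leaf blade mRNA of 3 control and 3 Po-VOC-exposed plants was measured by RNA-seq, with groups taken from the sample labels. According to the methods, the authors trimmed paired-end reads with Trimmomatic, mapped them with HISAT2 to Zo_v1.1 and made the deposited counts per gene with HTSeq-count. The deposited FPKM values are attributed to Cufflinks by the authors. For the tool versions, the counting mode and the strand option, the sources used here give nothing. Members were selected from the deposited FPKM, and the members, roles and lists were chosen with earlier results of these data known. Counts were fitted in R 4.3.3 with edgeR 4.0.16 (filterByExpr, minimum count 10, minimum total 15; TMM; quasi-likelihood test; Benjamini-Hochberg adjustment) and, as an alternative, DESeq2 1.42.0, and the code was tested on simulated data. Standard errors were derived from the log2 fold change and its F statistic (size of the change over the root of F). Count ratios have exact (Clopper-Pearson) 95% intervals on counts summed over the plants of each group. The intervals leave out the spread among plants and describe genes chosen for this contrast. The rule for named genes took members with a product name, the 10 of highest exposed mean, the 3 genes on each side of each threshold and members within 100 kb of each other. The other members and the same-named or neighbouring non-members were added after their values were seen. Product names come from the rows of the study's annotation used here, which hold 1517 genes, and positions from RefSeq, in which all 55601 genes were found. Protein relatives and promoter motifs, which had been planned, were not analysed here. Same-named counterparts and the windows on chromosome 11 took their place. Alternatives covered thresholds, scaling, filter, count model, replicate block and each library left out.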

Additional observations from a re-analysis of the deposited data

How the results depend on the processing

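The number of genes selected depended on the thresholds. It was 9 with control plants below 0.25 FPKM, 86 below 1 FPKM, 108 with exposed plants at 1 FPKM or more, 2 at 5 FPKM or more and 32, all of them members, with TMM library sizes, and 40 to 87 with single libraries left out. The number of members that edgeR called ranged from 0 to 33 with single libraries left out, while all genes called higher ranged from 1 to 969. With the replicate number as a block, 8 members were called, beside 65 genes called higher in all. But the labels tie same-numbered plants to nothing shared, and their deviations from the group means correlated at -0.0162, 0.0236 and -0.105. The numbers were therefore not treated as pairs. No sample correlated best with its own number. Other count models, scalings and filters called 34 to 38 members, beside 440 to 1677 genes called higher in all. Members without control counts numbered 0 to 2 with single control libraries left out, and 5 members had at most 3 control counts in all. With a distance of 500 kb, 7 members had another member nearby. The median exposed level of the members stayed between 4.28 and 4.70 FPKM. Low control counts limit the ratios, and a ratio from 1 to 3 control counts spans more than a factor of 10 within its interval.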
